A study of Mus musculus with 6 samples.

Results

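The 8 sarcomeric myosin heavy chain genes examined here, Myh1, Myh2, Myh3, Myh4, Myh6, Myh7, Myh7b and Myh8, were chosen by their symbols, and all 8 were present among the 24411 genes of the count table. RNA was sequenced from extensor digitorum longus (EDL), a muscle of the lower leg made mostly of fast-twitch fibres, of 3 mAktDKO mice and 3 control mice of the strain C57BL/6J at the age of 50 weeks. The mAktDKO mice carried floxed Akt1 and Akt2 alleles together with Mlc1f-Cre, and the control mice carried the same floxed alleles and no Cre, so all 6 mice were floxed and the presence of Cre and the loss of Akt1 and Akt2 cannot be told apart. Cre was knocked in at the Mlc1f promoter of the fast myosin light chain gene Myl1, so the deletion is driven by a promoter of fast muscle fibres and does not cover every cell of the tissue. The values are estimated numbers of reads per gene, and levels are given as CPM, counts relative to a library size that TMM scaling aligns on most genes.

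A myosin heavy chain is the motor protein of the thick filament: its head pulls on actin while splitting ATP, and its tail packs into the filament. Each fibre type of adult skeletal muscle is named after the heavy chain it makes. Myh4 encodes IIb, the fastest, Myh1 encodes IIx, Myh2 encodes IIa, and Myh7 encodes the slow type I chain, which is also the beta chain of the heart. Myh3 and Myh8 encode the embryonic and perinatal chains of developing and regenerating muscle, Myh6 the alpha chain of the heart, and Myh7b an ancient slow-type chain that is found mostly as RNA in heart and slow muscle. Because these proteins are so alike, how well short reads tell the genes apart comes first.

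On the mouse genome build mm10 with the GENCODE M21 annotation, Myh3 (chr11:67078300-67102291), Myh2 (chr11:67171027-67197517), Myh1 (chr11:67200052-67224575), Myh4 (chr11:67238029-67260446) and Myh8 (chr11:67277124-67308634) stand in a row on the forward strand. Myh6 (chr14:54941921-54966927) and Myh7 (chr14:54970684-54994626) are neighbours on the reverse strand of another chromosome. Myh7b (chr2:155611212-155634307) lies alone on the forward strand. The coding sequences of Myh1 and Myh2 were identical at 90.9% of 5829 aligned bases, those of Myh1 and Myh4 at 90.1%, and those of Myh6 and Myh7 at 91.7%. Myh3 reached 80.2% with Myh1, and Myh7b between 68.8% and 72.0% with the other members. The longest stretch that Myh1, Myh2 and Myh4 share without a difference is 140 coding bases long. It is shown because a read from it cannot be assigned to any of these 3 genes by sequence alone. It lies across exons 15 and 16 of Myh1 (chr11:67207552-67208953, intron included), exons 15 and 16 of Myh2 (chr11:67180907-67181135) and exons 14 and 15 of Myh4 (chr11:67246503-67248546), all on the forward strand.
Myh1, Myh2 and Myh4: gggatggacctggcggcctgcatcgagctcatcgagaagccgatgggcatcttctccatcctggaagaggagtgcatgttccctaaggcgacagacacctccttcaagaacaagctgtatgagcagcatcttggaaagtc

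In the same stretch Myh3 differed from this sequence at 5 bases, Myh8 at 9, Myh6 at 24, Myh7 at 25 and Myh7b at 31. At the other extreme, the 60-base coding window in which Myh1, Myh2 and Myh4 were least alike had a mean pairwise identity of 70.0%. It is shown because reads from such windows are the ones that separate the genes. Myh4 (chr11:67254458-67254517, exon 28 of 39) is printed first, and capitals mark the bases at which Myh1 (chr11:67217464-67217523, exon 29 of 40), Myh2 (chr11:67191348-67191407, exon 29 of 40), Myh3 (chr11:67096009-67096068, exon 29 of 41) and Myh7 (chr14:54978642-54978701, reverse strand, exon 30 of 41) differ from it.
Myh4: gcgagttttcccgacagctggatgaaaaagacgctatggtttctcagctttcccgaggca
Myh1: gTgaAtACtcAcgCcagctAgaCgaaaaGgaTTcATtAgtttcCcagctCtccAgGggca
Myh2: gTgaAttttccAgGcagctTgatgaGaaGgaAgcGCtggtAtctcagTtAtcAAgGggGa
Myh3: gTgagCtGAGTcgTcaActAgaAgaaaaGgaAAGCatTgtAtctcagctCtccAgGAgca
Myh7: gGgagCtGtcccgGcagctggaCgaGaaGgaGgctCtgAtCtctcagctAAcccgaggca

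Here Myh1 differed from Myh4 at 18 of the 60 bases, Myh2 at 17, Myh3 at 21 and Myh7 at 13.

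The reads were 37 bases long, so the share of each transcript's 37-base words that also occurs in a transcript of another gene was counted. For Myh1 it was 34.6%, for Myh2 34.3%, for Myh6 28.8%, for Myh7 28.2%, for Myh8 28.1%, for Myh4 25.9% and for Myh3 8.34%. Myh7b had no such word. The sharing was mostly between genes of the same chromosome: Myh1 and Myh2 had 1508 words in common and Myh1 and Myh4 950, whereas Myh6 and Myh7 had 1748 in common and Myh7 shared 23 with Myh1. RSEM, with which the authors estimated the counts, divides a read that fits several genes among them, and the values carry the trace of this division. All 7 genes with shared words had counts that were not whole numbers in all 6 mice, and Myh7b had whole counts in all 6 mice. Of all genes listed, 7.87% had a count that was not whole in any mouse. The words count exact matches of a single read, and neither the pairing of reads nor matches with a mismatch is included, so they are not a share of misplaced reads. The counts of Myh1, Myh2 and Myh4, and those of Myh6 beside its more abundant neighbour Myh7, remain uncertain for this reason.

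**Figure D1:**
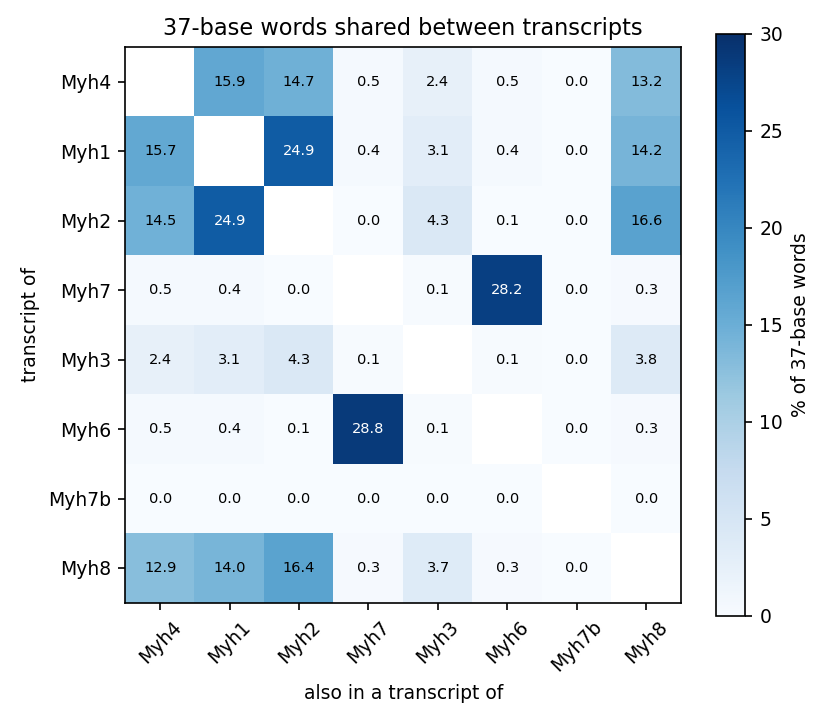
Share (%) of the 37-base words in the transcript of each gene (rows) that also occur in a transcript of another member (columns), by colour and number. A block of Myh4, Myh1, Myh2 and Myh8 and a separate pair of Myh7 and Myh6 stand out, with 28.8% of the Myh6 words found in Myh7, while the row and the column of Myh7b are at 0.

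The total counts of the 6 libraries were between 13738795 and 15445523, and a gene at 3 counts lies at 0.194 to 0.218 CPM. Akt2, the targeted gene that served as a check of the labels, had 49.1 to 52.7 CPM in the mAktDKO mice and 133 to 172 CPM in the control mice (log2 fold change -1.55, adjusted p = 0.000923 with edgeR's quasi-likelihood test). Akt1 had 51.4 to 58.9 and 65.5 to 66.5 CPM (adjusted p = 0.114 with the same edgeR test), and the counts are not per exon. The markers of skeletal muscle fibres Acta1 and Ckm were at 19312 to 23150 and 8944 to 11178 CPM over all 6 mice. The heart genes Nppa, Nppb and Myl7 had 0 counts in all 6 mice. A gene is said to have passed the test here at an adjusted p under 0.01, a limit that the study's methods set for DESeq2 together with a limit on q. In edgeR's quasi-likelihood test, adjusted by Benjamini-Hochberg over 12892 genes, 3 of them passed, 0.0233%, all lower in mAktDKO mice. Without adjustment 3164 genes had a p under 0.05. The groups did not overlap in 16.6% of the tested genes with the mAktDKO mice lower and in 14.6% with the mAktDKO mice higher. The median log2 fold change of all tested genes was 0.017. Nothing in the labels says more of the mice than their genotype, age and strain, so the p-values measure the spread between these 6 animals.

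The heavy chain genes made up between 6.66% and 7.42% of all counts of a mouse. Each group of mice had the same order of the 4 most abundant genes. On the scale of CPM per kilobase of merged exons, which allows genes to be compared, Myh4 stood at 8308 ± 492 (SD, n = 3) in the mAktDKO mice and 8412 ± 737 (SD, n = 3) in the control mice. Myh1 followed with 1967 ± 67.6 and 2796 ± 152, Myh2 with 577 ± 84.9 and 1000 ± 441, and Myh7 with 75.5 ± 29.9 and 40.6 ± 16.1 CPM per kilobase. EDL thus had the profile of a fast muscle, with IIb above IIx above IIa above type I RNA in all 6 mice, and the ranges of neighbours in this order did not overlap in either group. The other 4 genes stood at 1.14 to 4.998 CPM per kilobase. In the control mice their order was Myh3, Myh6, Myh7b and Myh8, where the ranges of Myh3 and Myh6 and those of Myh7b and Myh8 overlapped. In the mAktDKO mice Myh3 came last, after Myh6, Myh7b and Myh8, and the ranges of all neighbours among these 4 overlapped. The order of Myh7b and Myh8 rests on merged exon lengths of 6163 and 7871 bases. Before division by length, Myh8 had the higher mean in each group, 13.2 against 11.5 CPM (mAktDKO) and 11.4 against 10.3 CPM (control).

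**Figure D2:**
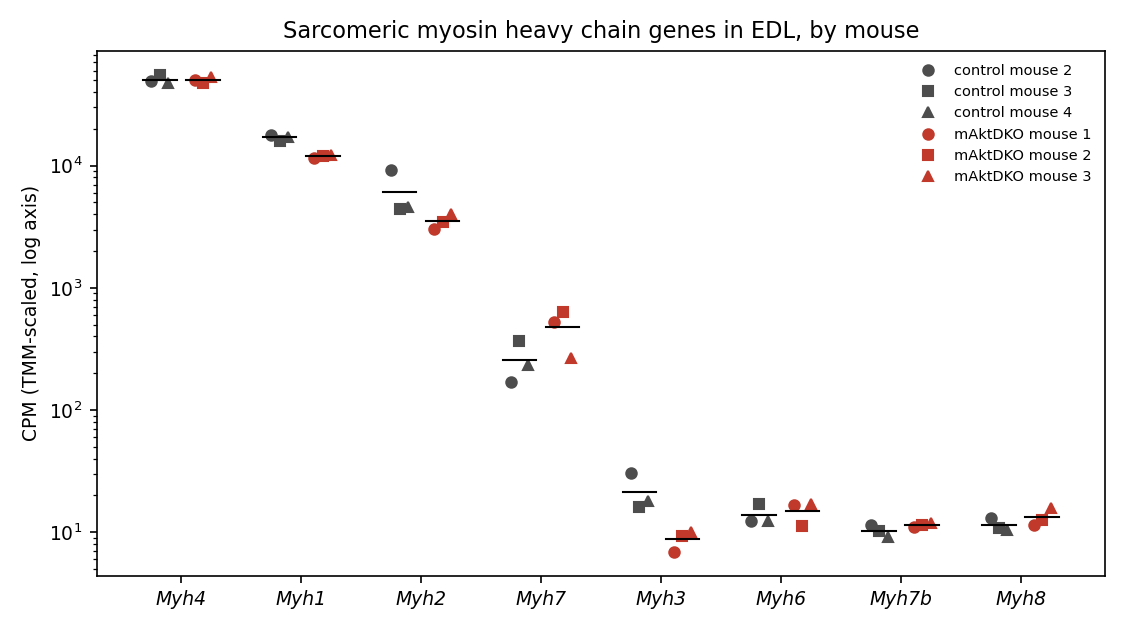
Level of each gene in CPM (TMM-scaled, log axis) by mouse, with grey symbols for the control mice, red symbols for the mAktDKO mice and a black line at the mean of the 3 mice of a group. The red symbols of Myh1, Myh2 and Myh3 all lie below the grey ones, control mouse 2 lies above the other control mice for Myh2 (9177 CPM) and Myh3 (30.3 CPM), and the groups overlap for the other 5 genes.

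Myh4, the IIb chain, had 49930, 47045 and 52960 CPM in mAktDKO mice 1 to 3 and 49238, 55567 and 47022 CPM in controls, which the table numbers 2 to 4. The groups overlapped completely. The means were 49979 ± 2958 and 50609 ± 4435 CPM (SD, n = 3 each), and the log2 fold change was -0.02 (standard error, SE, 0.12, adjusted p = 0.944 with edgeR's quasi-likelihood test). The 95% interval of the log2 fold change ran from -0.30 to 0.26. The sign depended on the scaling: with library totals in place of TMM, which moved the median of all tested genes from 0.017 to 0.156, Myh4 was at 0.12, again within its standard error of that median.

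Myh1, the IIx chain, had 11522, 12072 and 12327 CPM in mAktDKO mice and 17807, 16000 and 17250 CPM in controls. The groups did not overlap, and the spread within each group was small, with coefficients of variation of 3.44% and 5.44%. The means were 11974 ± 411 and 17019 ± 925 CPM (SD, n = 3 each), a level 29.6% lower in the mAktDKO mice. The log2 fold change was -0.51 (SE 0.10) with an unadjusted p of 0.000869 and an adjusted p of 0.0539 with edgeR's quasi-likelihood test, so Myh1 did not pass the threshold. DESeq2's Wald test gave a log2 fold change of -0.52 (SE 0.089, adjusted p = 1.89e-06 with DESeq2) and called it. The difference was present under every scaling tried, at -0.34 even when the counts were scaled to the sum of the 8 genes.

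Myh2, the IIa chain, had 3019, 3463 and 4049 CPM in mAktDKO mice and 9177, 4440 and 4624 CPM in controls. The groups did not overlap, but control mouse 2 had about as much Myh2 RNA as the other control mice together, and the highest mAktDKO mouse and the lowest control mouse were close to each other. The means were 3511 ± 517 and 6080 ± 2683 CPM (SD, n = 3 each). The log2 fold change was -0.79 (SE 0.26, adjusted p = 0.125 with edgeR's quasi-likelihood test) and did not pass the threshold. Without control mouse 2 it was -0.37 (SE 0.13, adjusted p = 0.174 with edgeR).

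Myh7, the slow type I chain, pointed the other way, with 525, 637 and 269 CPM in mAktDKO mice and 168, 368 and 233 CPM in controls. mAktDKO mice 1 and 2 lay above all control mice, and mAktDKO mouse 3 lay among them. The means were 477 ± 189 and 256 ± 102 CPM (SD, n = 3 each), with coefficients of variation of 39.6% and 39.8%, against 5.92% and 8.76% for Myh4. The log2 fold change was 0.90 (SE 0.34, adjusted p = 0.152 with edgeR's quasi-likelihood test), and its interval ran from 0.14 to 1.66. It ranged from 0.63 to 1.25 when each mouse was left out in turn. The markers of adipocytes were high in the same mAktDKO mice: Adipoq, a hormone of fat cells, had 16.9, 21.9 and 5.69 CPM in mAktDKO mice 1 to 3 and 5.94, 4.60 and 9.53 CPM in the control mice. All 5 adipocyte markers had a log2 fold change above 0, none passed the test, and their summed level was 51.5 to 151 CPM in the mAktDKO group and 39.98 to 84.5 CPM in the control group. Their part in the Myh7 values was not tested.

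Myh3, the embryonic chain, had 6.91, 9.29 and 10.01 CPM in mAktDKO mice and 30.3, 16.2 and 18.1 CPM in controls, from 109 to 433 estimated counts per mouse. All 3 mAktDKO mice were below the lowest control, and control mouse 2 was the highest again. The means were 8.74 ± 1.62 and 21.5 ± 7.64 CPM (SD, n = 3 each). The log2 fold change of -1.30 (SE 0.24) was the largest of the family, and its adjusted p of 0.0474 with edgeR's quasi-likelihood test lay above 0.01 and below 0.05, a threshold that 1.18% of all tested genes passed. DESeq2's Wald test called it with a log2 fold change of -1.31 (adjusted p = 1.0e-05 with DESeq2). Leaving out control mouse 2 gave a log2 fold change of -0.97 (SE 0.16, adjusted p = 0.0288 with edgeR). The adjusted p rose above 0.05 in 4 of the 6 edgeR fits with a mouse left out, to 0.131, 0.220 and 0.115 without mAktDKO mouse 1, 2 or 3 and to 0.065 without control mouse 3, and was 0.0522 when the counts were scaled to the sum of the 8 genes. Myh3 shares 259 of its 5995 words with Myh2, a far more abundant gene.

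Myh8, the perinatal chain, had 11.3, 12.5 and 15.8 CPM in mAktDKO mice and 13.1, 10.7 and 10.4 CPM in controls. The groups overlapped, and the log2 fold change was 0.21 (SE 0.15, adjusted p = 0.416 with edgeR's quasi-likelihood test). It ranged from 0.049 to 0.32 when each mouse was left out in turn. Of 6 tested markers of satellite cells and myoblasts, 4 were above 0 and 2 below, and none passed. Myog and Myf5 were higher in all mAktDKO mice than in all control mice, beside 14.6% of all tested genes. Cdh15 was lower in all mAktDKO mice than in all control mice, beside 16.6% of all tested genes. The markers with the smallest p were Myog, a late myogenic factor, at 8.23 to 13.8 CPM in the mAktDKO and 4.26 to 7.51 CPM in the control mice (log2 fold change 1.06, adjusted p = 0.0642 with edgeR) and Cdh15 at -0.42 (adjusted p = 0.122 with edgeR). The summed level of the 6 markers was 85.2 to 100 CPM and 86.2 to 88.1 CPM.

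Myh6, the alpha chain of the heart, had 16.5, 11.2 and 16.9 CPM in mAktDKO mice and 12.2, 17.1 and 12.4 CPM in controls. The groups overlapped, with a log2 fold change of 0.10 (SE 0.19, adjusted p = 0.777 with edgeR's quasi-likelihood test). The control mice had the same order for Myh6 and for Myh7, the neighbour with which it shares 1748 words, whereas mAktDKO mouse 2 was the highest of its group for Myh7 and the lowest for Myh6. The ratio of Myh7 to Myh6 counts ranged from 13.7 to 57.0 over the 6 mice. Of the 8 cardiac markers examined, 4 were tested, all 4 were above 0 and none passed. Their summed level was 774 to 1463 CPM in the mAktDKO group and 130 to 1676 CPM in the control group, nearly all of it Actc1, the cardiac actin that skeletal muscle also makes.

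Myh7b had 11.03, 11.6 and 12 CPM in mAktDKO mice and 11.5, 10.2 and 9.15 CPM in controls. It was the most even of the low genes, from 121 to 193 counts, none of which was divided with another gene. The groups overlapped, and the log2 fold change was 0.16 (SE 0.12, adjusted p = 0.428 with edgeR's quasi-likelihood test), with a range of 0.082 to 0.25 over the fits with a mouse left out.

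Of the 8 genes, 0 were called by edgeR at an adjusted p under 0.01, beside 0.0233% of all tested genes. At 0.05 Myh3 was called, beside 1.18%. DESeq2 called Myh1 and Myh3 at 0.01, 2 of 8, beside 3.55% of the 9616 genes to which it gave an adjusted p. At an unadjusted p under 0.05 with edgeR were Myh1, Myh2, Myh3 and Myh7, beside 24.5% of all tested genes. The 3 genes whose groups did not overlap, Myh1, Myh2 and Myh3, were all lower in the mAktDKO mice, beside 16.6% of all genes.

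**Figure D3:**
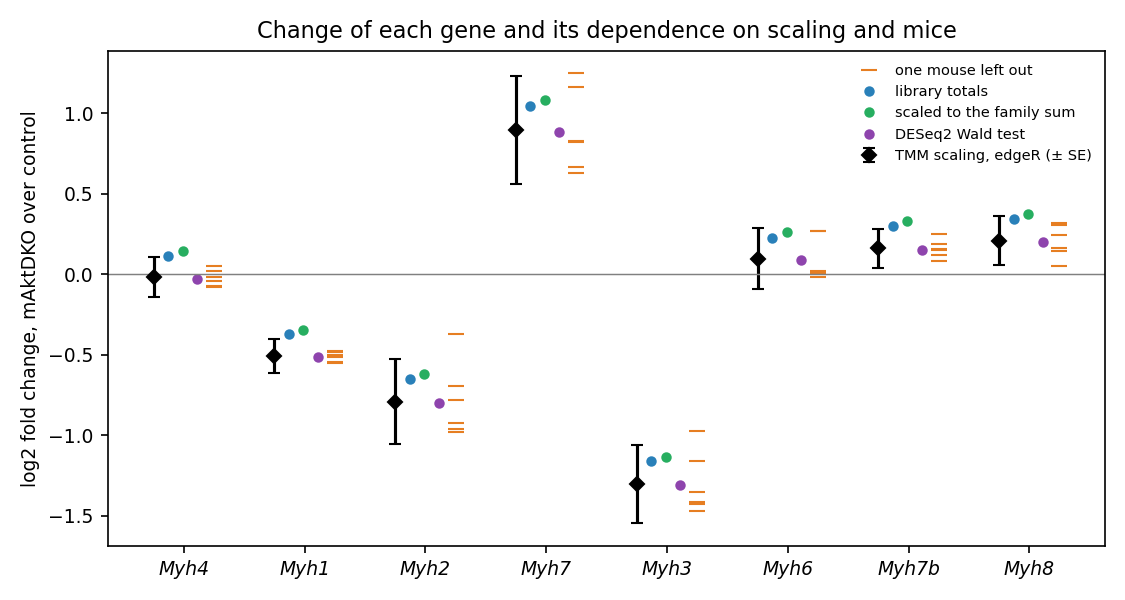
Log2 fold change of each gene, mAktDKO over control, with edgeR after TMM scaling (black, bars are 1 standard error), after scaling to library totals (blue) or to the sum of the 8 genes (green), with DESeq2 (purple), and with each mouse left out in turn (orange dashes). Myh1, Myh2 and Myh3 stay below 0 and Myh7, Myh7b and Myh8 above 0 under all settings shown, whereas Myh4 changes sign between TMM scaling (-0.02) and library totals (0.12), and Myh6 lies below 0 without mAktDKO mouse 3 (-0.019).

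How the genes divide the heavy chain RNA among themselves was compared next, as the share of each gene in the summed counts of the 8 genes. A share does not depend on the scaling between libraries, but the 8 shares add up to 100% and are not independent of each other. The sums were 914996 to 1093579 counts per mouse. No 95% Wilson interval of a share was wider than 0.0956 percentage points to either side, the value for Myh4. These intervals cover counting error only. For the rare Myh3, Myh6, Myh7b and Myh8 they reached 0.0037, 0.0031, 0.0026 and 0.0029 points to either side, which is not small beside their shares. All tests of shares and ratios below are exact permutation tests, two-sided, in which 3 mice against 3 cannot go below p = 0.1, so none of them can pass.

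Myh4 made up 76.8%, 74.4% and 76.0% of the family in the mAktDKO mice and 64.4%, 72.7% and 68.0% in the control mice. Although its level overlapped between the groups, its share did not: the means were 75.7% ± 1.23 and 68.4% ± 4.17 (SD, n = 3 each; exact permutation p = 0.1), a difference of 7.36 percentage points. Myh1 made up 17.7%, 19.1% and 17.7% in the mAktDKO mice and 23.3%, 20.9% and 24.9% in the control mice. These groups did not overlap either, and the mean shares differed by -4.89 points (18.2% ± 0.79 against 23.1% ± 2.01, SD, n = 3 each; exact permutation p = 0.1). Myh2 made up 4.64%, 5.47% and 5.81% in the mAktDKO mice and 12%, 5.81% and 6.68% in the control mice. mAktDKO mouse 3 and control mouse 3 were level, and the difference in means of -2.86 points (exact permutation p = 0.2) shrank to -0.94 points without control mouse 2. In these 6 mice IIb RNA thus took a larger part and IIx RNA a smaller part of the family in the mAktDKO group, while the level of IIb RNA overlapped between the groups.

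**Figure D4:**
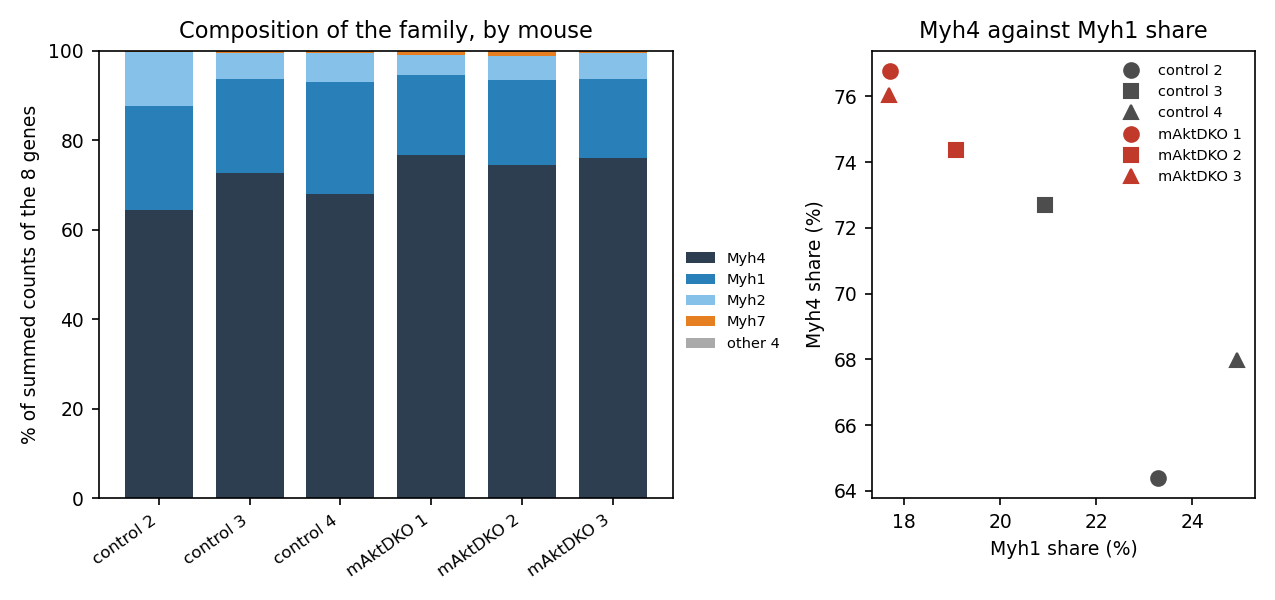
Left, share (%) of each gene in the summed counts of the 8 genes by mouse, where Myh4 is lowest in control mouse 2 (64.4%) and highest in mAktDKO mouse 1 (76.8%). Right, the Myh4 share against the Myh1 share (both %) with 1 point per mouse: the 3 mAktDKO mice (red) lie together at the upper left, from 17.7% to 19.1% Myh1, and the 3 control mice (grey) lie apart from each other to the right, from 20.9% to 24.9%.

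The ratio of Myh4 to Myh1 counts put this in a single value. It was 4.33, 3.90 and 4.30 in the mAktDKO mice and 2.77, 3.47 and 2.73 in the control mice, with means of 4.18 ± 0.24 and 2.99 ± 0.42 (SD, n = 3 each; exact permutation p = 0.1). The ratio of Myh1 to Myh2 overlapped between the groups, at 3.04 to 3.82 and 1.94 to 3.73 (exact permutation p = 0.8). When Myh4 was left out of the denominator, the share of Myh1 was 74.8% and 73.3% on average, with overlapping groups and a difference of 1.51 points (exact permutation p = 1.0). The lower share of Myh1 was thus seen with Myh4 in the denominator and not without it. Without Myh4, however, the denominator was mostly Myh1 itself. Nearly all the rest was Myh2 (21.9% in mAktDKO and 25.3% in control mice on average), whose level was also lower. This share could therefore hardly follow a lower level of Myh1, and no conclusion is drawn from it.

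The share of Myh7 was 0.807%, 1.01% and 0.386% in the mAktDKO mice and 0.220%, 0.481% and 0.336% in the control mice, and the groups overlapped (exact permutation p = 0.2). It remained a minor chain in every mouse, since Myh4, Myh1 and Myh2 made up 98.9% to 99.7% of the family. The share of Myh3 was 0.0132% ± 0.0022 against 0.0290% ± 0.0095 (SD, n = 3 each), without overlap (exact permutation p = 0.1). Set against Myh2 in the same mouse, Myh3 had 2.30, 2.67 and 2.47 counts per 1000 Myh2 counts in the mAktDKO mice and 3.30, 3.65 and 3.90 in the control mice. This ratio was even within each group, and control mouse 2, which was the highest for each of the 2 genes, had the lowest ratio of the control mice. The shares of Myh7b (0.0175% against 0.0139%) and Myh8 (0.0199% against 0.0154%) were higher in all mAktDKO mice than in all control mice (exact permutation p = 0.1 for each), and that of Myh6 overlapped (0.0225% against 0.0187%, exact permutation p = 0.3). The Wilson intervals of mAktDKO mouse 1 and control mouse 2 overlapped, however. They were 0.0146% to 0.0197% and 0.0130% to 0.0176% for Myh7b, and 0.0151% to 0.0202% and 0.0148% to 0.0197% for Myh8. Counting error thus covers the gap between these mice.

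The summed level of the family was 65043, 63262 and 69660 CPM in mAktDKO mice and 76457, 76429 and 69179 CPM in controls on the TMM scale. mAktDKO mouse 3 lay above control mouse 4, and the means of 65988 ± 3302 and 74022 ± 4194 CPM (SD, n = 3 each) gave an exact permutation p of 0.2. Relative to plain library totals, the sums were 68713 to 69800 and 66599 to 74186 CPM (exact permutation p = 0.7), so the size of this difference depended on the scaling, and the shares above did not.

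The light chains and partners of the thick filament were examined around the heavy chains. None of the genes in the lists that follow passed the edgeR threshold of 0.01, and the counts of genes above and below 0 stand beside 6130 below and 6762 above 0 among all tested genes. The 2 fast light chains, which sit on the neck of the fast myosins, were both below 0. Myl1 had 4442 to 4798 CPM in the mAktDKO mice and 5403 to 6583 CPM in the control mice (log2 fold change -0.39, adjusted p = 0.0853 with edgeR), but Mlc1f-Cre sits at this gene, and an effect of the knocked-in allele cannot be told apart. Mylpf was at -0.20 (adjusted p = 0.355 with edgeR). Of the 4 tested slow, atrial and other light chains, 2 were above and 2 below 0 with a median of 0.083, and Myl4, the embryonic and atrial light chain, had 6.03 to 7.29 and 3.64 to 5.25 CPM (log2 fold change 0.58, adjusted p = 0.103 with edgeR). Myl3 was at 0.20 (adjusted p = 0.558 with edgeR).

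All 10 tested partners of the thick filament had a log2 fold change below 0, with a median of -0.50 against 0.017 for all tested genes, and in 7 of them the groups did not overlap, beside 16.6% of all tested genes in this direction. Mylk4, a kinase of the myosin light chain kinase family, had 313, 264 and 335 CPM in mAktDKO mice and 575, 545 and 490 CPM in controls (log2 fold change -0.82, SE 0.11, adjusted p = 0.0206 with edgeR). Mybpc1, the slow myosin-binding protein C, had 3158, 3309 and 3633 CPM and 5056, 4300 and 5087 CPM (log2 fold change -0.52, adjusted p = 0.0557 with edgeR). The log2 fold change of Mybpc1 was close to that of Myh1, at -0.51, and that of Mylk4 was farther from 0. Of 7 chaperones and assembly factors of myosin, 6 were below 0 with a median of -0.16, among them Trim54 (log2 fold change -0.56, adjusted p = 0.0816) and Unc45b, the myosin chaperone (log2 fold change -0.37, adjusted p = 0.126, both with edgeR). Myh13, a further member of the chromosome 11 row that is typical of eye muscles, had 27.02 to 36.5 and 24.7 to 33.5 CPM (log2 fold change 0.24, adjusted p = 0.355 with edgeR), and Myh15 had 3 to 9 counts per mouse and was not tested. Of the 4 smooth-muscle and non-muscle heavy chains, 2 were above and 2 below 0 with a median of -0.015, including Myh14 at -0.49 (adjusted p = 0.196) and Myh9 at 0.089 (adjusted p = 0.665, both with edgeR).

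The fast-fibre genes, which encode calcium handling, troponins and other fast isoforms, were below 0 in 12 of 12 cases, with a median of -0.28, and 7 did not overlap between the groups, beside the same 16.6% of all tested genes. This list also holds Myl1, Mylpf and Mybpc2, which were counted above, and Myl1 and Mybpc2 are among those 7. Tnni2, fast troponin I, had 2068 to 2516 CPM in the mAktDKO mice and 3260 to 4083 CPM in the control mice (log2 fold change -0.59, adjusted p = 0.0557 with edgeR). Tnnc2, fast troponin C, was at -0.48 (adjusted p = 0.0608 with edgeR). The summed level of this list was 58131 to 65905 CPM and 73213 to 75699 CPM. The general markers of skeletal fibres were lower as well, in 7 of 7 cases with a median of -0.30 and a summed level of 144338 to 187871 CPM against 182730 to 209599 CPM. None passed, and the groups did not overlap in 4 of the 7, beside 16.6% of all tested genes with the mAktDKO mice lower. The list shares Ttn with the partners of the thick filament and Tnnt3 with the fast-fibre genes. Ttn alone was at 100114 to 152176 CPM over the 6 mice. Mb, myoglobin, which stores oxygen in oxidative fibres, had 811, 769 and 895 CPM in mAktDKO mice and 2821, 1783 and 1756 CPM in controls (log2 fold change -1.36, SE 0.18, adjusted p = 0.0206 with edgeR). Des, desmin, was at -0.49 (adjusted p = 0.115 with edgeR). In whole muscle, fewer fibres of a type and less RNA per fibre cannot be told apart.

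Markers of other cells in the muscle lay above 0 on balance, and their part in the values of the heavy chains was not tested. All 5 fibroblast markers were above 0 with a summed level of 18280 to 21736 CPM in the mAktDKO group and 7284 to 18401 CPM in the control group, where control mouse 2 was the lowest, and most of the sum was Col1a1 (5899 to 18884 CPM over the 6 mice). Dcn, decorin, was at 0.57 (adjusted p = 0.0539) and Pdgfra at 0.25 (adjusted p = 0.148, both with edgeR). All 5 markers of macrophages and leukocytes were above 0 (59.9 to 71.5 against 43.1 to 59.97 CPM in sum), with Ptprc at 0.64 (adjusted p = 0.125) and Cd68 at 0.93 (adjusted p = 0.141, both with edgeR). Of 5 endothelial markers 4 were above 0 (404 to 470 against 334 to 434 CPM), with Cdh5 at 0.32 (adjusted p = 0.173) and Emcn at 0.46 (adjusted p = 0.174, both with edgeR). Of 5 smooth-muscle markers 4 were below 0 (262 to 353 against 299 to 307 CPM), with Smtn at -0.13 (adjusted p = 0.363) and Myh11 at -0.091 (adjusted p = 0.695, both with edgeR). Of the 8 genes of denervated fibres 6 were above 0 (107 to 127 against 79.7 to 92.3 CPM), with Myog, which is also in this list, at 1.06 (adjusted p = 0.0642) and Chrna1, a subunit of the acetylcholine receptor, at 0.42 (adjusted p = 0.0752, both with edgeR). The 4 tested genes of muscle spindle fibres, which are known to make Myh6, Myh7b and developmental heavy chains, were all above 0 (19.6 to 22.8 against 14.7 to 15.7 CPM), led by Egr3 at 0.92 (adjusted p = 0.0573) and Etv1 at 0.55 (adjusted p = 0.0761, both with edgeR).

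The slow-fibre genes did not move as one. Of 12, 7 were above and 5 below 0 with a median of 0.24, and none passed. Tpm3, slow tropomyosin, had 126, 143 and 90.3 CPM in mAktDKO mice and 57.5, 93.8 and 76.1 CPM in controls (log2 fold change 0.66, adjusted p = 0.102 with edgeR). Casq2, the slow calsequestrin, was at -0.39 (adjusted p = 0.118 with edgeR). Across the 6 mice, the log2 levels of Tnni1, Tpm3, Tnnc1 and Tnnt1, thin-filament genes of slow fibres, had Pearson correlations with Myh7 of 0.99, 0.98, 0.97 and 0.96. Myl3 and Atp2a2 followed at 0.90 and 0.86. By contrast the correlation with Myh7 was 0.35 for Myl6b and 0.062 for Pln. It was -0.12 for Myl2, -0.34 for Myoz2, -0.42 for Casq2 and -0.74 for Csrp3, and Csrp3 had 0.93 with Myh2. These correlations over 6 mice of 2 groups describe the libraries, which share their depth and composition, and carry no test. Control mouse 2 had the lowest Myh7 and the highest Myh2, Csrp3 and Myl2 level of the control mice, and mAktDKO mouse 2 had the highest Myh7 level of all.

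**Figure D5:**
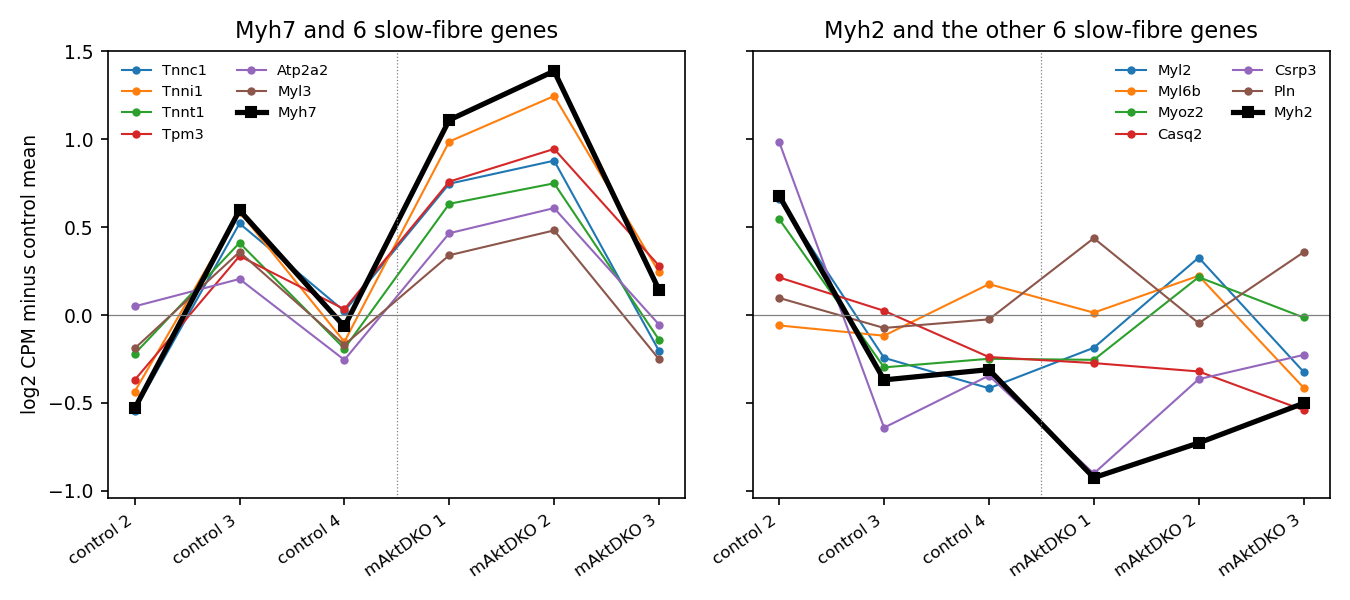
Level of each gene by mouse as log2 CPM minus the control mean, with Myh7 (black, left) beside 6 slow-fibre genes and Myh2 (black, right) beside the other 6. On the left the lines peak in control mouse 3 and in mAktDKO mice 1 and 2, and on the right Csrp3 follows Myh2 with a correlation of 0.93 and the other genes less closely.

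For each member the 2 genes with the most similar pattern over the 6 mice were picked from 9455 tested genes with a mean of at least 5 CPM, by the Pearson correlation of log2 CPM. With so few mice, such values are common: 144 genes exceeded 0.95 for Myh1, 236 for Myh2, 205 for Myh3 and 60 for Myh7, but 6 for Myh4 and 3 for Myh6. Myh1 was closest to Camk2b (0.995), a calcium-dependent kinase that had 108, 110 and 110 CPM in mAktDKO mice and 174, 160 and 172 CPM in controls (log2 fold change -0.63, adjusted p = 0.018 with edgeR), and to Plxna4 (0.993). Myh7 was closest to Tnni1 (0.994), slow troponin I, with 28.0, 33.5 and 16.7 CPM and 10.3, 21.2 and 12.6 CPM, and to Itga5 (0.993). Myh2 was closest to Nudc and Usp13 (0.998 and 0.997), Myh3 to Stau2 and Ranbp3 (0.996 and 0.994), Myh4 to Tmem181b-ps and Rars (0.982 and 0.976) and Myh6 to Cacybp and Jund (0.981 and 0.973). Myh7b was closest to Lsm11 and Cirh1a (0.995 and 0.993), and Myh8 to Zfyve1 and Zfp644 (0.995 and 0.993). No member was among the genes compared.

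Since Myh1, Myh2 and Myh3 were lower in all mAktDKO mice and the level of Myh4, which lies between Myh1 and Myh8, overlapped, the regions before their start sites were compared. The 250 bases before the RefSeq start of Myh4 (chr11:67237562-67237811), Myh1 (chr11:67199852-67200101), Myh2 (chr11:67170777-67171026) and Myh8 (chr11:67276874-67277123) are shown on build GRCm38.p6, all on the forward strand and each printed up to the base before the start. Capitals mark runs that the sequences share. The RefSeq starts used for Myh1 and Myh4 differ from the GENCODE gene starts given above, so distances and matches in these windows depend on the start chosen.
Myh4: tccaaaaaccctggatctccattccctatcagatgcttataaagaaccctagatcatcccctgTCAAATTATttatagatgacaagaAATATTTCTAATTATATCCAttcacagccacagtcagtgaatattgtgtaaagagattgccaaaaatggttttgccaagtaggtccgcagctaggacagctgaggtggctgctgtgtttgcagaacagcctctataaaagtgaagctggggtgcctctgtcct
Myh1: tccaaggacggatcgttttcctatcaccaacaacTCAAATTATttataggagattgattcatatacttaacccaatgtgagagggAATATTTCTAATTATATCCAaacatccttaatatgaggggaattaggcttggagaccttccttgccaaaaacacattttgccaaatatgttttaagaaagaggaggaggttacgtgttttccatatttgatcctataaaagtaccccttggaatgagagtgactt
Myh2: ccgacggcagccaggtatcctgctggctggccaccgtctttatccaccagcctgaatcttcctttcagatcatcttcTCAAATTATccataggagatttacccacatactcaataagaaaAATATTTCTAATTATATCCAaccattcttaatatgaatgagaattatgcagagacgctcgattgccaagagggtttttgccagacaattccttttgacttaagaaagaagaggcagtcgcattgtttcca
Myh8: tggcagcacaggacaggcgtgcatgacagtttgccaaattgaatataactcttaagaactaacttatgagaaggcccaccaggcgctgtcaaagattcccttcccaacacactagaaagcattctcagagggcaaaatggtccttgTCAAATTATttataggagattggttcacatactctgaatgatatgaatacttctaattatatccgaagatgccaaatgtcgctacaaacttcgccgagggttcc

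The 20-base run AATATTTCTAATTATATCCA occurred in the windows of Myh4, Myh1 and Myh2, with its first base 163, 165 and 130 bases before the start. On both strands it was found in 3 of 32851 promoter windows of the 250 bases before the start, 0.00913%, which are these 3. The 9-base run TCAAATTAT occurred once in each of Myh4, Myh1, Myh2 and Myh8, 187, 216, 173 and 104 bases before the start, and in 0.174% of all windows. TATAAA, found on either strand in 12.4% of all windows, occurred in those of Myh4, Myh1 and Myh3. The window of Myh8 had it on the reverse strand only, so the printed sequence of Myh8 does not show it. CANNTG, the E-box that myogenic factors bind, occurred in 66.2% of all windows, with 2 matches for Myh4, 1 each for Myh3, Myh6, Myh7, Myh7b and Myh8, and no match for Myh1 and Myh2. A match is a description of the letters. The shared runs stand before Myh4, whose level overlapped between the groups, as well as before Myh1 and Myh2. Their part in the levels of these genes was not tested.

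Factors that have been reported to act on heavy chain genes were examined as a list of 32, all of them tested. Of these, 19 were above and 13 below 0 with a median of 0.077, none passed the threshold, and 7 were higher and 5 lower in all mAktDKO mice than in all control mice, beside 14.6% and 16.6% of all tested genes, so that the count of lower factors was near the background. Eya4, a transcriptional coactivator, had 47.2, 51.9 and 51.6 CPM in mAktDKO mice and 30.9, 40.1 and 34.1 CPM in controls (log2 fold change 0.52, SE 0.11, adjusted p = 0.0539 with edgeR). Vgll3, a partner of the Tead factors, had 10.1, 10.6 and 8.91 CPM and 5.38, 7.30 and 5.52 CPM (log2 fold change 0.71, adjusted p = 0.0573 with edgeR).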

How the data were processed

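RNA of EDL from 3 mAktDKO and 3 control mice was analysed. Libraries were depleted of ribosomal RNA, prepared with a directional kit and sequenced as 37-base read pairs. The authors mapped the reads to mm10 with STAR (version 2.6.1b in the submitters' processing notes) and deposited estimated counts per gene from RSEM 1.3.1, not scaled between mice. Whether the counting used the strand is not given in the sources used here, so reads of antisense transcripts at Myh1, Myh2 and Myh7 cannot be told apart. Control columns are numbered 2 to 4, whereas the labels number control mice 1 to 3. Each such column was therefore taken as a mouse of its group without a label of its own.

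Estimated counts were rounded, filtered with filterByExpr of edgeR 4.0.16 in R 4.3.3 (minimum count 10), scaled by TMM and compared in a quasi-likelihood model, with Benjamini-Hochberg adjustment over 12892 genes. The standard error is the log2 fold change divided by the square root of F, and log2 CPM use a prior count of 2. All 8 members passed the filter. Shares, ratios and sums were compared by exact permutation over mice. Coding sequences were aligned with mafft 7.526, and 37-base words were counted over all GENCODE M21 transcripts. Promoter windows are from RefSeq (GRCm38.p6). The fits were tested on simulated counts. Alternatives were other scalings and filters, DESeq2 1.42.0, another threshold, other denominators of the shares and leaving out each mouse.

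The members and lists were chosen with earlier results of these data known. All members are named, in each list at most the 2 genes with the smallest p unless more passed the threshold, and for each member the 2 most similar genes. Other genes are named as label checks or markers, or because their pattern was seen in the data.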

Additional observations from a re-analysis of the deposited data

How the results depend on the processing

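No paired analysis was possible because the labels tie no replicate number to a shared litter, batch or day, and the control columns are numbered 2 to 4 but the labelled control samples 1 to 3. The number of genes called, 3, was 32 without the filter on low counts, 341 with DESeq2, 152 at an adjusted p under 0.05 and between 0 and 8 when each mouse was left out, with 0 in each of the 3 edgeR fits that lacked a mAktDKO mouse (2441, 1871 and 2794 genes there had an unadjusted p under 0.05) and 8 without control mouse 2. The number of members called, 0, was 2 with DESeq2 and 1 at an adjusted p under 0.05, and stayed at 0 when each mouse was left out. At 0.05 it was 2 (Myh1 and Myh3) without the filter and with at least 10 counts in every mouse, and 0 when scaled to the sum of the 8 genes and in 4 of the 6 fits with a mouse left out. Scaling to library totals moved the all-gene median to 0.16 (log2), and scaling to the sum of the 8 genes to 0.18. Myh4 changed sign, to 0.12 and 0.15 under these scalings, to 0.024 without mAktDKO mouse 2 and to 0.053 without control mouse 3, in a range of -0.077 to 0.053 over the 6 fits with a mouse left out. Myh6 was at -0.019 without mAktDKO mouse 3, in a range of -0.019 to 0.27. The family sum differed by -8033 CPM on the TMM scale, -1440 on library totals, -1676 on library totals without the members and -10455 to -6670 with a mouse left out. With Myh4 taken out of the denominator, which enlarges every other share by construction, the differences in share were 1.51 points for Myh1, -3.43 for Myh2, -0.036 for Myh3, 0.032 for Myh6, 1.86 for Myh7, 0.028 for Myh7b and 0.033 for Myh8. With a mouse left out they were 5.38 to 9.53 points for Myh4, -5.95 to -3.95 for Myh1 and -4.03 to -0.94 for Myh2. The estimated division of reads among similar genes limits the values of all members except Myh7b.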
